A study of Drosophila melanogaster
Mus musculus with 6 samples.

Results

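The 4 mouse Hox clusters, HoxA, HoxB, HoxC and HoxD, were followed as 450 genomic bins of 10 kb, out of 248945 such bins in the genome (0.181%). Members were chosen by position alone in the mm9 build, with no use of signal: each window holds 1 cluster core and the 500 kb on either side of it. The cores are chr6:52100001-52230000 for HoxA (13 bins), chr11:96050001-96240000 for HoxB (19 bins), chr15:102750001-102880000 for HoxC (13 bins) and chr2:74490001-74620000 for HoxD (13 bins). Together the cores hold 58 bins and the flanks 392, of which 100 lie beside HoxA, 98 beside HoxB, 94 beside HoxC and 100 beside HoxD. Another 4 intervals of 20 kb in the windows, 1 beside HoxB and 3 beside HoxC, were left out. No gene annotation was used here, so regions are given by position, and "low" and "high" side refer to the coordinate.

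Hox genes encode transcription factors that give body regions their identity along the head-to-tail axis, and their order within a cluster follows the order of their expression along that axis. In the mouse, the genes expressed most anteriorly lie on the low-coordinate side of HoxA and on the high-coordinate side of HoxB, HoxC and HoxD. Silent Hox genes are textbook targets of Polycomb repressive complex 2, which methylates lysine 27 of histone H3 (H3K27me3). Dimethylation of lysine 36 (H3K36me2) is laid down by NSD-family enzymes over broad active and intergenic regions, and a nucleosome methylated at lysine 36 is a poor substrate for Polycomb repressive complex 2. Histone H3 with methionine in place of lysine 36 (K36M) inhibits enzymes that methylate lysine 36, also on the unmutated histones of the same cell.

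The cells were C3H10T1/2, a line of mesenchymal progenitors derived from embryos of C3H mice, grown to passage 10 to 15. The K36M line stably expressed FLAG-HA-tagged H3.1 K36M, and the WT line stably expressed FLAG-HA-tagged wild-type H3.1. Both lines therefore carried a tagged transgene beside their own H3 genes. The sources used here do not name the promoter that drives it, nor say whether a line was a clone or a pool. Chromatin cut by micrococcal nuclease was immunoprecipitated with antibodies against H3K27me3 or H3K36me2 after chromatin of Drosophila S2 cells had been added as an external reference (ChIP-Rx). Each line gave 1 library per mark, so the 4 libraries allow no replicate check and no test between lines. The cell type could not be checked against expressed markers, since only histone marks were measured.

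Values are scaled reads per bin, meaning the reads of a bin multiplied by 1 factor per library. Ratios are K36M over WT with a 95% counting interval (exact binomial), which covers counting error only and neither culture nor library differences. A bin was called higher or lower by a rule of size, at least 2-fold after a pseudocount was added, among bins whose mean over both lines reached the 25th percentile of the genome. A library's top 5% or top 1% refers to its own 248945 bins.

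Over the whole genome, H3K27me3 averaged 34.5 scaled reads per bin in K36M and 13.7 in WT, a ratio of 2.52. H3K36me2 averaged 15.7 in K36M and 148 in WT, a ratio of 0.106. The median log2 ratio over all bins was 1.60 for H3K27me3 and -1.62 for H3K36me2. The H3K27me3 libraries held 29115433 reads in bins for K36M and 31330422 for WT, and the H3K36me2 libraries 50022100 for K36M and 57939301 for WT. With reads expressed per library total in place of the deposited factors, the genome median was 0.46 for H3K27me3 and 0.04 for H3K36me2. Directions between lines can therefore rest on those factors, while comparisons of core with flank within a library do not.

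The cores as a group had less H3K27me3 in K36M than in WT, whereas their flanks, like the genome, had more. Core bins averaged 104 ± 50.3 scaled reads in K36M and 125 ± 65.2 in WT (SD over 58 bins), a ratio of 0.835 (0.822 to 0.849). The medians were 110 in K36M and 138 in WT, and the K36M value was the lower of the pair in 39 of the 58 core bins. Flank bins averaged 57.8 ± 35.1 in K36M and 35.4 ± 41.5 in WT (SD over 392 bins), a ratio of 1.63 (1.62 to 1.65). The median log2 ratio was -0.21 in the cores and 1.21 in the flanks, both under the genome median of 1.60. The difference of those medians, core minus flank, was -1.42 over the 4 clusters, and was -0.16 for HoxA, -1.41 for HoxB, -1.70 for HoxC and -1.17 for HoxD.

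By the rule of size, 1 of 52 core bins was called higher in H3K27me3 and 3 were called lower, against 70.1% of bins called higher and 0.161% called lower in the whole genome. The other 6 core bins, all in HoxA, were under the minimum level and not tested. Their log2 ratios were 1.47 to 2.32. Most core bins, 49 of 58, were in the WT top 5%. In that class of the genome, 12473 bins, only 0.778% were called higher and 0.954% lower. In the flanks 173 of 339 bins were called higher (51.0%) and 0 lower. Over whole windows the count was 174 of 391 (44.5%). A bin with a WT value at or below the genome median of 5.89 could pass the minimum level only through K36M. It was then always called higher, so the counts in flanks and genome are in part fixed by the filter. Without the filter 229 of the 450 window bins were called higher, beside 72.5% in the genome. With libraries scaled to their totals the core ratio was 0.332 and the flank ratio 0.649, so the flanks then lay lower in K36M than in WT.

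**Figure D1:**
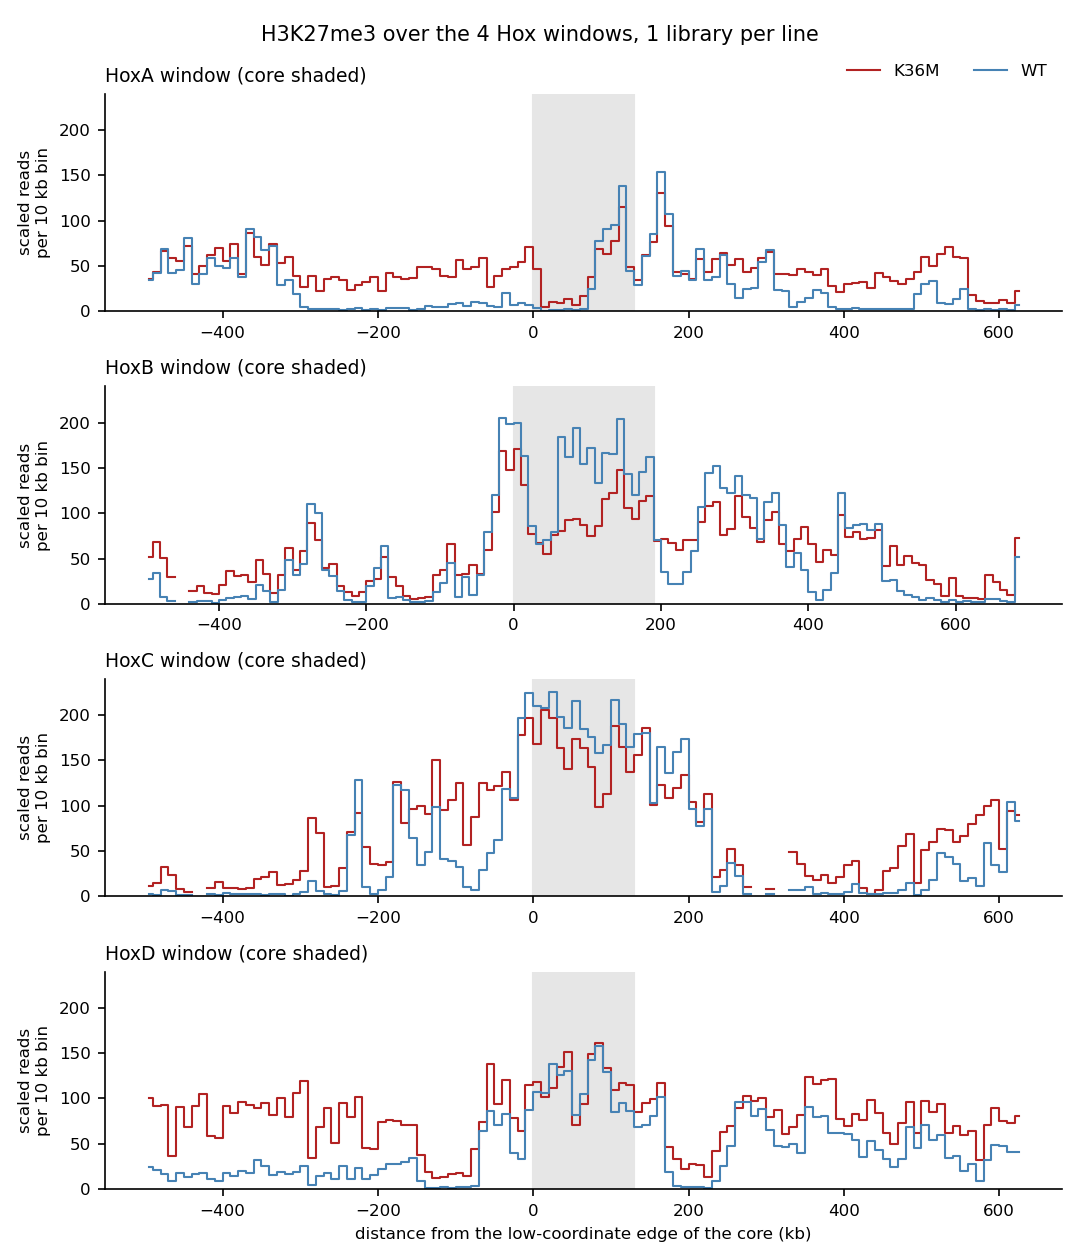
H3K27me3 in scaled reads per 10 kb bin (deposited factors) against distance in kb from the low-coordinate edge of each core, with K36M in red, WT in blue and the core shaded; gaps are the 20 kb intervals left out. The K36M line lies under the WT line in 18 of 19 HoxB and 13 of 13 HoxC core bins, the lines are close in the HoxD core, and in the 34 bins at the far low side of the HoxD window K36M averages 80.4 and WT 18.2.

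H3K36me2 was lower in K36M throughout the cores, by less than in the flanks when the 4 clusters were pooled. Core bins averaged 14.3 ± 17.1 in K36M and 59.0 ± 35.8 in WT (SD over 58 bins), which is 4.12-fold lower in K36M (3.99 to 4.26). Flank bins averaged 19.6 ± 26.0 in K36M and 162 ± 117 in WT (SD over 392 bins), 8.25-fold lower in K36M. By means this gap came from HoxA, with 3.39-fold in the core and 12.1-fold in the flanks, and HoxB, with 3.59-fold and 8.16-fold. HoxC had 7.03-fold in the core and 7.45-fold in the flanks, and HoxD 6.11-fold and 5.93-fold, with overlapping intervals in both. By median log2 ratios HoxC had a gap too. Core minus flank was then 1.09 for HoxA, 1.34 for HoxB, 1.02 for HoxC and 0.26 for HoxD. The K36M value was the lower of the pair in 58 of 58 core bins and in 379 of 392 flank bins.

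Of the bins above the minimum level, 37 of 51 core bins (72.5%) and 337 of 375 flank bins (89.9%) were called lower in H3K36me2, beside 89.8% in the genome. In the windows 0 bins were called higher, beside 0.0177% in the genome. A bin with a K36M value at or below the genome median of 6.16 could pass the level only through WT. It was then always called lower, so the counts in windows and genome are in part fixed by the filter. Without the filter 388 of the 450 window bins were called lower, beside 75.1% in the genome. The pseudocount for this mark, 19.7, exceeds most K36M values in the cores, so the log2 scale understates differences there. With libraries scaled to their totals the ratio was 2.29 in the cores and 1.14 in the flanks, both above 1.

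**Figure D2:**
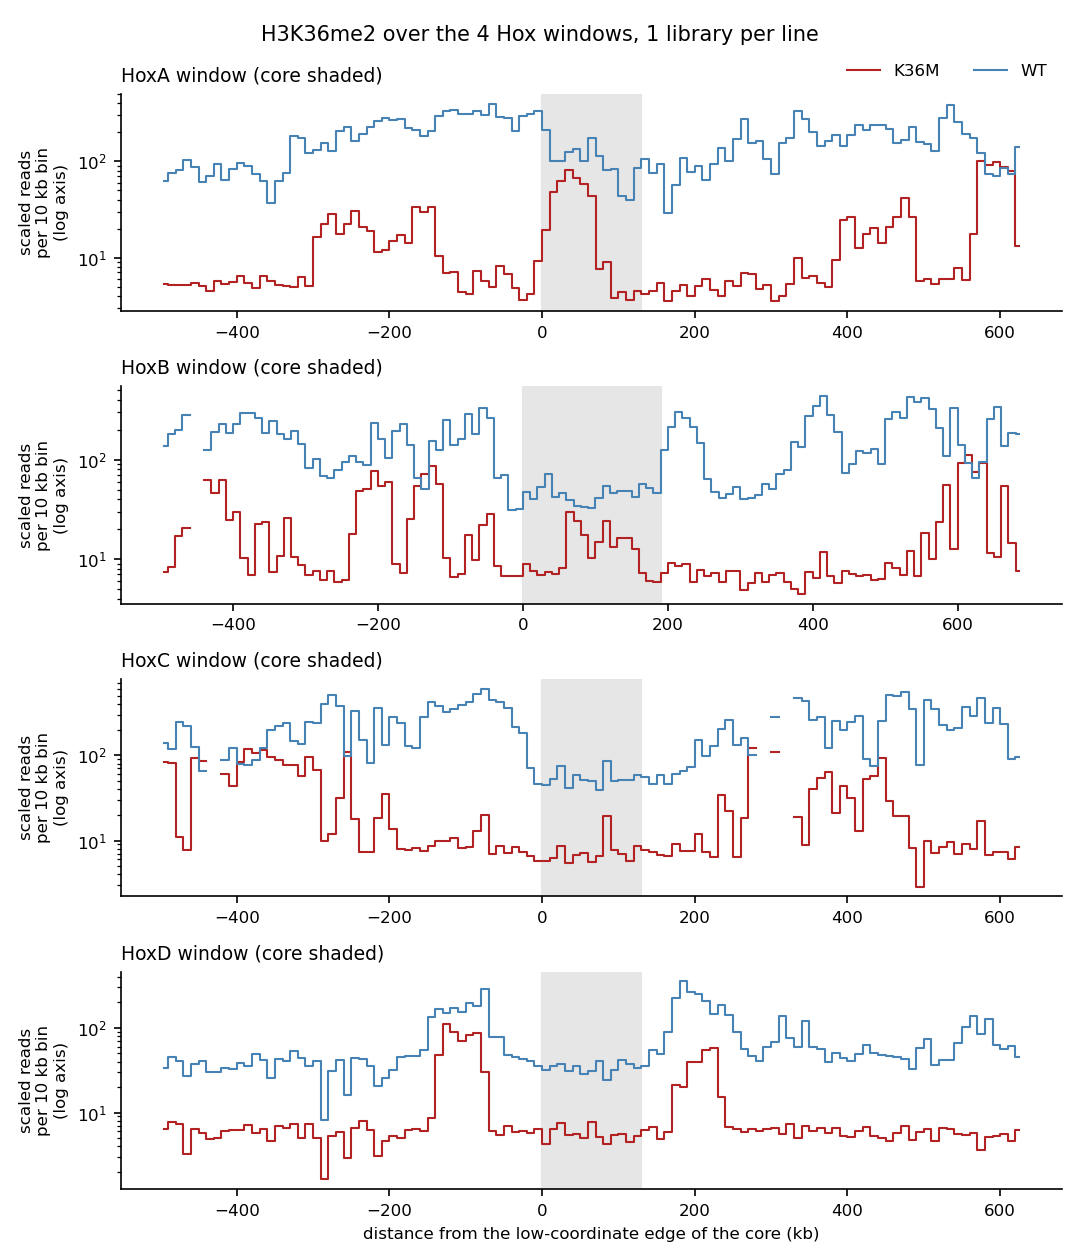
H3K36me2 in scaled reads per 10 kb bin (deposited factors, log axis) against distance in kb from the low-coordinate edge of each core, with K36M in red, WT in blue and the core shaded. K36M lies below WT in 437 of 450 bins, and islands of higher K36M signal stand in the HoxA core and at several flank positions, some of them at the WT level.

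Within each library, which needs no scaling between lines, the core means stood out less from the flank means in K36M than in WT. The core mean of H3K27me3 was 1.80 times the flank mean in K36M (1.78 to 1.83) and 3.53 times in WT (3.50 to 3.56). HoxC had the highest such enrichment in both libraries, with 2.57 in K36M and 4.78 in WT. HoxB followed with 2.02 in K36M and 3.49 in WT, and HoxD with 1.62 in K36M and 3.25 in WT. The HoxA core had 0.874 in K36M (0.831 to 0.918) and 1.51 in WT, so in K36M its mean lay below that of its flanks. By medians HoxA went the other way: the core had 37.5 and the flank 43.1 in K36M, and the core had 3.92 and the flank 10.3 in WT. By means the order of the 4 clusters was the same in both libraries.

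For H3K36me2 the same quotient was 0.728 in K36M and 0.364 in WT over the 4 clusters together, and the clusters differed. In HoxA it was 2.21 in K36M and 0.619 in WT, and in HoxB it was 0.616 in K36M and 0.271 in WT. In HoxC it was 0.246 (0.233 to 0.261) in K36M and 0.233 (0.219 to 0.247) in WT. In HoxD it was 0.438 (0.409 to 0.468) in K36M and 0.451 (0.418 to 0.487) in WT. The counting intervals of the lines overlapped for HoxC and HoxD and did not for HoxA and HoxB.

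**Figure D3:**
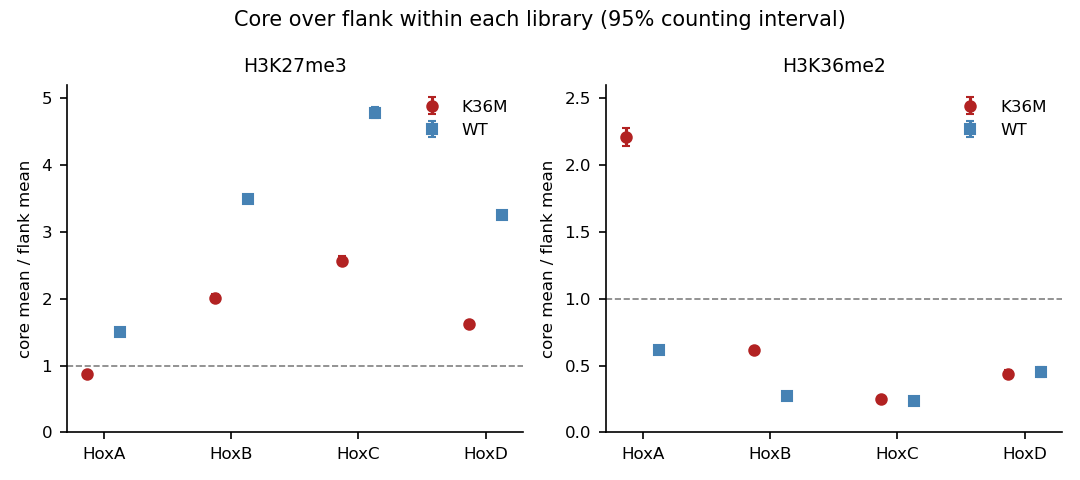
Mean of core bins over mean of flank bins within each library, for H3K27me3 (left) and H3K36me2 (right), with K36M as red circles, WT as blue squares, 95% counting intervals as bars and a dashed line at 1. H3K27me3 enrichment by means is lower in K36M than in WT in each of the 4 clusters (by medians HoxA goes the other way), and HoxA is the cluster where K36M H3K36me2 is above its flanks (2.21).

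The HoxA core was divided into a stretch with little H3K27me3 and a stretch with much of it, in both lines. This division was described after the values had been seen. Over chr6:52110001-52170000, bins 2 to 7 of the core, H3K27me3 ranged from 4.72 to 16.8 scaled reads in K36M and from 0.654 to 2.07 in WT. These values rest on 16 to 57 reads per bin in K36M and 6 to 19 in WT. Their percentile ranks among all bins were 2.51 to 25.8 in K36M and 1.08 to 10.0 in WT. The means were 10.1 in K36M and 1.36 in WT, a ratio of 7.40 (5.65 to 9.77), although both lines were low.

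Over the same 6 bins H3K36me2 was 48.3, 62.0, 81.7, 66.7, 58.7 and 43.1 in K36M and 102, 100.5, 125, 134, 102 and 175 in WT. The means of 60.1 in K36M and 123 in WT gave a ratio of 0.489, against 0.106 for the genome. The 5 bins of chr6:52110001-52160000 reached the K36M library's 90th percentile, 45.3 scaled reads, and no other bin of the 4 cores did. In WT their mean was 112, beside a genome median of 96.0.

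At the low edge of the HoxA core the first bin, chr6:52100001-52110000, had 46.9 scaled reads of H3K27me3 in K36M and 3.92 in WT. Its H3K36me2 was 19.3 in K36M and 212 in WT. It was the single tested core bin called higher in H3K27me3, and it closed a run of 31 such bins that began in the flank. Bins 2 to 7 were under the minimum level and not tested.

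The 6 bins on the high side, chr6:52170001-52230000, carried the Polycomb mark, with 68.4 in K36M and 78.4 in WT, a ratio of 0.873 (0.821 to 0.928). Their H3K36me2 was 5.46 in K36M and 74.7 in WT. The highest bin, chr6:52210001-52220000, had 114 in K36M and 138 in WT. The mean over the whole HoxA core, 39.8 in K36M and 37.1 in WT, mixes these stretches. Its ratio of 1.07 (1.01 to 1.13) became 0.940 after background subtraction and 0.427 with libraries scaled to their totals. Taken over bins by the median, 37.5 in K36M and 3.92 in WT, the ratio was 9.55.

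HoxB had the largest deficit of H3K27me3 in K36M among the 4 cores. Its 19 bins averaged 101 ± 29.2 in K36M and 146 ± 42.9 in WT (SD over bins), a ratio of 0.689 (0.670 to 0.708), and 18 of the 19 bins were lower in K36M. In WT each of the 19 bins was in the top 5% of the genome, and in K36M 15 were. The deficit was not even along the core.

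The middle 10 bins, chr11:96110001-96210000, had 101 in K36M and 168 in WT, a ratio of 0.598 (0.577 to 0.621). The low 6 bins had 96.2 in K36M and 111 in WT, a ratio of 0.868, and the high 3 bins had 109 in K36M and 143 in WT, a ratio of 0.763. By means the middle was thus raised above the low side in WT and about level with it in K36M. By medians the middle was raised in both lines, with 93.2 against 76.8 in K36M and 166 against 82.8 in WT. These divisions were also drawn after the values had been seen.

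The 3 bins of the windows that were called lower in H3K27me3 all lay in this middle stretch. The bin chr11:96110001-96120000 had 80.5 in K36M and 184 in WT, a ratio of 0.437 (0.383 to 0.497). The bin chr11:96130001-96140000 had 94.1 in K36M and 194 in WT, a ratio of 0.484 (0.428 to 0.545). The bin chr11:96150001-96160000 had 75.2 in K36M and 172 in WT, a ratio of 0.436 (0.381 to 0.498). By comparison the HoxB core's first bin, chr11:96050001-96060000, had 171 in K36M and 199 in WT.

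H3K36me2 in K36M was highest in the same middle stretch, where it averaged 17.9 in K36M and 42.0 in WT, a ratio of 0.425. On the low side it was 7.68 in K36M and 49.9 in WT, and on the high side 6.37 in K36M and 51.5 in WT. In WT the H3K36me2 level was thus a little lower in the middle than at the sides, while in K36M it was higher. The bin with the most H3K36me2 in K36M, 29.5 against 39.4 in WT, was chr11:96110001-96120000, the first of the 3 called lower in H3K27me3. Across the 19 bins Spearman's rho between the K36M H3K36me2 level and the H3K27me3 log2 ratio was -0.68, a description of bins that share libraries and neighbours. The same rho was 0.73 in the HoxA core, -0.34 in HoxC, -0.30 in HoxD, -0.10 over the 58 core bins and 0.42 over the flanks.

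HoxC was the most heavily marked core. H3K27me3 averaged 158 ± 31.1 in K36M and 192 ± 21.8 in WT (SD over 13 bins), with bins from 98.8 to 205 in K36M and from 159 to 225 in WT. The ratio was 0.823 (0.801 to 0.846), and 13 of 13 bins were lower in K36M, by a log2 ratio of -0.02 to -0.68. In K36M 12 of the 13 bins and in WT 13 of 13 were in the top 1% of the genome. H3K36me2 averaged 7.73 in K36M and 54.4 in WT, 7.03-fold lower in K36M.

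A single HoxC core bin, chr15:102830001-102840000, departed from the rest in both marks. Its H3K36me2 was 19.3 in K36M and 84.6 in WT, the highest of the core in each line, where the other 12 bins had at most 8.74 in K36M and 75.0 in WT. Its H3K27me3 was 98.8 in K36M and 159 in WT, the lowest of the core in each line. The HoxC bin with the most H3K27me3 in K36M, chr15:102760001-102770000, had 205 in K36M and 208 in WT.

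HoxD was the core in which H3K27me3 differed least between lines. It averaged 121 ± 25.2 in K36M and 115 ± 24.4 in WT (SD over 13 bins), with bins from 70.2 to 161 in K36M and from 82.1 to 158 in WT. The ratio was 1.05 (1.02 to 1.09), and 9 of 13 bins were higher in K36M and 4 lower. The 3 bins on its high side, chr2:74590001-74620000, had 109, 117 and 115 in K36M and 85.6, 94.9 and 86.2 in WT, which were the 3 highest log2 ratios of the core (0.35, 0.30 and 0.41). With libraries scaled to their totals the HoxD core ratio was 0.418.

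H3K36me2 was evenly low over HoxD, from 4.21 to 7.64 in K36M and from 24.2 to 42.0 in WT. The means of 5.54 in K36M and 33.9 in WT made it the core with the least of this mark in each line. Only 6 of its 13 bins passed the minimum level, and 6 of those 6 were called lower. At K36M values this low a bin could pass only through its WT value, which largely fixed the call. Without the filter the K36M value was the lower of the pair in 13 of 13 bins.

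**Figure D4:**
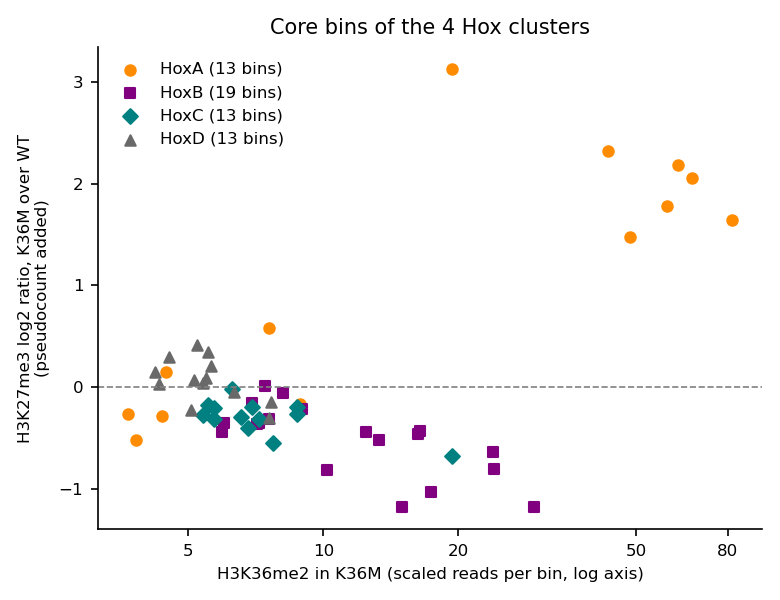
The 58 core bins, with the K36M H3K36me2 level in scaled reads (log axis) against the H3K27me3 log2 ratio of K36M over WT after a pseudocount of 1.635 (deposited factors), coloured by cluster. HoxB bins run from near 0 down to -1.18 as H3K36me2 goes up, the 6 HoxA bins above 40 scaled reads have positive log2 ratios from very low levels in both lines, and HoxD bins lie around 0.

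The uninterrupted H3K27me3 domain over each core, counted as bins in the library's own top 5%, summed to 520 kb in K36M and 740 kb in WT. It measured 20 kb in K36M and 40 kb in WT over HoxA, 80 kb in K36M and 240 kb in WT over HoxB, and 110 kb in K36M and 180 kb in WT over HoxD. Over HoxC it was 310 kb in K36M and 280 kb in WT. The K36M cutoff of 76.7 scaled reads was higher than the WT cutoff of 51.8. With the WT cutoff applied to both lines the K36M domains summed to 1140 kb, against 740 kb in WT, so the direction of this width depends on the cutoff. With each library's own top 10% the sums were 680 kb in K36M and 760 kb in WT. HoxB then had 170 kb in K36M and 240 kb in WT, and HoxD 180 kb in both lines.

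Bins that already carried much H3K27me3 in WT were compared with each other, since cores and flanks differ in that level. Among the 49 core bins in the WT top 5%, the means were 120 in K36M and 146 in WT, a ratio of 0.818 (0.805 to 0.831) and a median log2 ratio of -0.27. Among the 94 flank bins of that class the means were 96.6 in K36M and 97.2 in WT, a ratio of 0.994 (0.981 to 1.01) and a median log2 ratio of -0.03. The 12473 such bins of the genome averaged 83.3 in K36M and 76.3 in WT, with a median log2 ratio of 0.00. These classes use the WT value itself, so a bin read high by counting error in WT is favoured.

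The top 1% of WT gave closer values. The 41 core bins of that class had medians of 119 in K36M and 162 in WT and a median log2 ratio of -0.30. The 45 flank bins had medians of 105 in K36M and 119 in WT and a median log2 ratio of -0.23. The 2496 bins of the genome had medians of 91.5 in K36M and 102 in WT and a median log2 ratio of -0.21. By means the genome's bins gave 137 in K36M and 120.4 in WT, but single bins reached 77332.5 in K36M and 22936 in WT. Of those 2496 bins 1909 were lower in K36M. The core bins had means of 127 in K36M and 159 in WT, and the flank bins 112 in K36M and 127 in WT.

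The 298 flank bins under the WT top 5% had 45.6 in K36M and 15.9 in WT, a ratio of 2.86 (2.83 to 2.90). Their WT mean was above the genome mean of 13.7, and 184 of the 298 lay above the WT genome median. Where WT H3K36me2 was also in the top 10% of the genome, 33 flank bins averaged 66.9 in K36M and 16.0 in WT, a ratio of 4.19. The same class of the genome, 24840 bins, had 48.1 in K36M and 6.87 in WT, a ratio of 7.00.

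Over the 4 clusters together the H3K27me3 level of the flanks was lower with distance from the core in both lines, but single clusters departed from this. In the first 100 kb the mean was 80.4 in K36M and 66.2 in WT, a ratio of 1.21. From 100 to 200 kb it was 56.6 in K36M and 39.3 in WT, and from 200 to 300 kb 52.6 in K36M and 26.7 in WT. From 300 to 400 kb it was 50.4 in K36M and 22.3 in WT, and from 400 to 500 kb 48.7 in K36M and 22.0 in WT, a ratio of 2.21. The first 100 kb beside HoxC was the most marked, with 124 in K36M and 110 in WT, and that beside HoxA the least, with 55.7 in K36M and 37.3 in WT. HoxD ran the other way in K36M, with 66.3 in the first 100 kb and 85.9 from 300 to 400 kb, where WT had 41.1 and 34.1. HoxA was lowest from 200 to 300 kb, with 33.8 in K36M and 5.74 in WT, and higher again beyond.

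**Figure D5:**
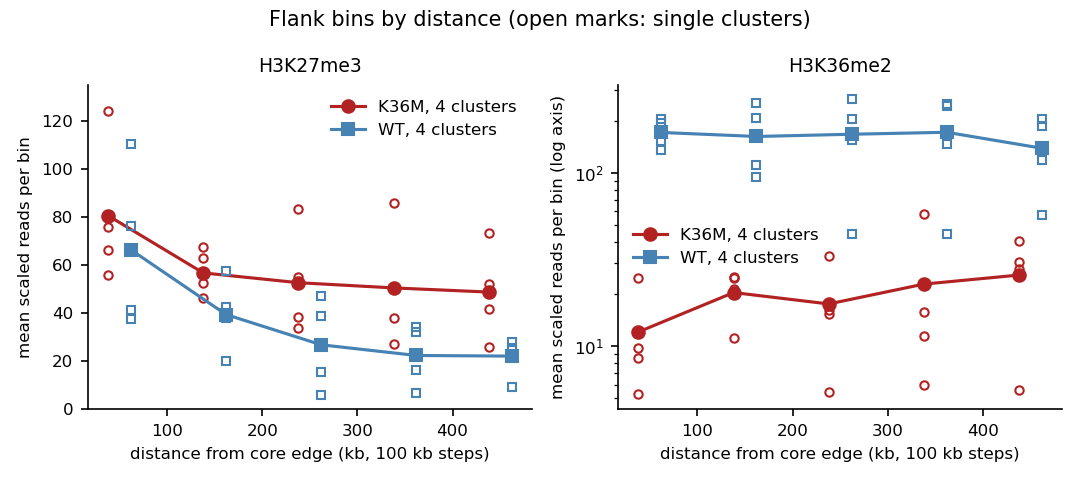
Mean scaled reads per flank bin in 100 kb steps of distance from the core edge, both sides together (deposited factors), for H3K27me3 (left) and H3K36me2 (right, log axis); filled marks are the 4 clusters together, open marks single clusters, K36M red circles and WT blue squares, set slightly apart sideways. H3K27me3 over the 4 clusters together ends at 48.7 in K36M and 22.0 in WT, with single clusters spread around these means, and H3K36me2 in K36M lies below WT at each distance.

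The low flank of HoxA held a long run of bins called higher in H3K27me3 where WT was rich in H3K36me2. Such runs were picked by the call itself, so their ratios are high by selection. In bins with a WT value at or below the genome median of 5.89, passing the minimum level already fixed the call. Of the 50 bins of that flank 30 were called higher (60%), beside 70.1% in the genome. Over the run of 31 called bins at chr6:51800001-52110000, which ends with the first core bin, H3K27me3 averaged 40.5 in K36M and 5.03 in WT, a ratio of 8.05 (7.58 to 8.55). H3K36me2 there was 14.5 in K36M and 255 in WT. On the other side of HoxA, 13 called bins at chr6:52470001-52600000 had 33.6 in K36M and 5.37 in WT, with H3K36me2 of 19.3 in K36M and 195 in WT.

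The low flank of HoxD held a called run of similar length, picked in the same way, where H3K36me2 was low in both lines. In that flank 36 of 44 bins were called higher (81.8%), beside 70.1% in the genome. Over 34 called bins at chr2:73990001-74330000, which reach the window's edge, H3K27me3 averaged 80.4 in K36M and 18.2 in WT, a ratio of 4.43 (4.28 to 4.58). H3K36me2 was 5.71 in K36M and 36.3 in WT, under the genome medians of 6.16 in K36M and 96.0 in WT. Of the 50 bins on that side 26 were in the top 5% in K36M and 5 in WT, against 5.05% of the genome's bins in K36M and 5.01% in WT. The low flank of HoxD as a whole had 73.3 in K36M and 22.8 in WT, a ratio of 3.22 (3.14 to 3.30), and the high flank 75.4 in K36M and 47.8 in WT, a ratio of 1.58 (1.54 to 1.61).

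Beside HoxC 40 of 72 flank bins were called higher (55.6%), fewer than the 70.1% of the genome's bins. They were 20 of 33 on the low side and 20 of 39 on the high side. Its H3K27me3 ratio was 1.12 in the first 100 kb and 4.05 from 300 to 400 kb. Next to the domain over the core, the 11 bins at chr15:102590001-102700000, a stretch drawn after the values had been seen, had 105 in K36M and 41.4 in WT, a ratio of 2.53 (2.42 to 2.64). H3K36me2 there was 10.1 in K36M and 414 in WT, a level at the WT top 5% cutoff of 413. HoxB had the smallest flank gain, with 49.9 in K36M and 41.9 in WT, a ratio of 1.19 (1.17 to 1.21). The longest called runs beside it were 7 bins each, at chr11:95650001-95720000 with 32.2 in K36M and 9.69 in WT, and at chr11:96560001-96630000 with 42.2 in K36M and 10.5 in WT.

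Separate H3K27me3 domains in the flanks, taken as runs of at least 3 bins in the WT top 5% apart from the core's domain, behaved differently between clusters. The HoxB run of 13 bins at chr11:96290001-96420000 had 89.7 in K36M and 114 in WT, a ratio of 0.787, and the 6 bins at chr11:96490001-96550000 had 79.5 in K36M and 91.8 in WT, a ratio of 0.866. Both HoxA runs were also lower in K36M: chr6:51730001-51770000 had 67.9 in K36M and 78.0 in WT, and chr6:52240001-52280000 had 90.7 in K36M and 102 in WT. The HoxC run at chr15:102570001-102600000 had 101 in K36M and 101.5 in WT.

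The 4 HoxD runs were higher in K36M. At chr2:74420001-74460000 the means were 106 in K36M and 75.7 in WT, a ratio of 1.41, and at chr2:74750001-74800000 they were 94.0 in K36M and 85.3 in WT, with a ratio between 1.04 and 1.17. At chr2:74840001-74910000 they were 101.5 in K36M and 70.0 in WT, a ratio of 1.45, and at chr2:74990001-75020000 they were 92.2 in K36M and 61.5 in WT, with a ratio between 1.38 and 1.62. The flank bins with the most H3K27me3 in WT lay against or near the cores. Beside HoxA this was chr6:52260001-52270000 with 130 in K36M and 153 in WT, beside HoxB chr11:96030001-96040000 with 168 in K36M and 205 in WT. Beside HoxC it was chr15:102740001-102750000 with 197 in K36M and 225 in WT, and beside HoxD chr2:74650001-74660000 with 117 in K36M and 102 in WT.

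Some flank bins had much H3K36me2 in K36M, and H3K27me3 was low in most of them in both lines. The 55 flank bins in the top 10% of the K36M library had H3K36me2 of 78.3 in K36M and 140 in WT. They were picked by that K36M value, which is thus high by selection. Their H3K27me3 was 12.9 in K36M and 3.41 in WT, a ratio of 3.80 (3.57 to 4.04). Above the genome median of H3K27me3 lay 0 of the 55 bins in K36M and 2 in WT, where the highest, beside HoxB, had 39.9. The 24912 such bins of the genome had H3K27me3 of 17.9 in K36M and 4.51 in WT, a ratio of 3.97. These are means, and by medians the order was reversed. The flank bins had 11.8 in K36M and 2.40 in WT, and the genome's bins 10.3 in K36M and 2.29 in WT. In 13 flank bins H3K36me2 was higher in K36M than in WT, by at most 1.53 times, and 0 passed the rule of size.

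The longest such island was 11 bins at chr15:102350001-102460000 beside HoxC, with H3K36me2 of 88.7 in K36M and 163 in WT and H3K27me3 of 16.0 in K36M and 2.67 in WT. Its bin chr15:102360001-102370000 had H3K36me2 of 119 in K36M and 77.6 in WT, the ratio of 1.53, whose interval begins at 1.27. Beside HoxD the 6 bins at chr2:74350001-74410000 had H3K36me2 of 80.9 in K36M and 169 in WT and H3K27me3 of 15.7 in K36M and 1.93 in WT. This island lies between the run of 34 called bins and the HoxD core.

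At the high edge of the HoxA window the 5 bins at chr6:52670001-52720000 had H3K36me2 of 91.3 in K36M and 85.4 in WT, and H3K27me3 of 10.1 in K36M and 1.96 in WT. At the high side of HoxB the 4 bins at chr11:96650001-96690000 had H3K36me2 of 92.7 in K36M and 98.3 in WT. The flank bin with the most H3K36me2 in K36M, chr15:103020001-103030000 beside HoxC, had 122 in K36M and 101 in WT.

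Across the 450 bins the 2 marks ran against each other in both lines. Spearman's rho between H3K36me2 and H3K27me3 was -0.56 in K36M and -0.53 in WT, a description over bins that share libraries, neighbours and base composition. In the HoxC window it was -0.81 in K36M and -0.39 in WT, and in the HoxD window -0.24 in K36M and -0.23 in WT. The order of bins by H3K27me3 was much the same in both lines, with a rho of 0.87 between K36M and WT, while for H3K36me2 it was 0.44.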

How the data were processed

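H3K27me3 and H3K36me2 were measured in 4 libraries, 1 per line and mark, with depths given above. The deposited table holds 1 signal value per genomic interval and library, scaled by the authors. Within 0.01 of a read, 100% of values were whole multiples of 1 step per library, so reads were recovered by division. The sources used here give neither how the factor was made nor the counting, duplicate and read filters. Per the submitters' processing notes, which give no roles, the genome builds were mm9 (mouse) and dm6 (fly), and the tool was Bowtie 1.0.0. Added fly chromatin was 5% of the mouse chromatin per the labels' protocols, while another label gives an equal mix. Both inputs have titles naming H3.3 and genotypes naming H3.1. Inputs and H3K36me3 are not analysed here.

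Of 253926 intervals, 249267 were 10 kb wide, and 322 of those without signal were left out. The median bin held 99 reads in K36M and 54 in WT for H3K27me3, and 79 in K36M and 151 in WT for H3K36me2, which sets the precision of single bins. Cores were the windows without 500 kb on each side. Log2 ratios took the 5th percentile of WT values above 0 as pseudocount (1.635 for H3K27me3, 19.7 for H3K36me2). Calls needed 2-fold and a mean over lines at or above the 25th percentile. Intervals are exact Clopper-Pearson at 95%. The calls were tested on simulated data. The regions named were the core bins, runs of at least 3 bins that were high in WT H3K27me3, high in K36M H3K36me2 or called, the highest flank bins, and stretches said to be drawn after the values were seen. Windows, lists and rules were chosen with earlier results of these data known. The gene list written for naming was not applied, for want of an annotation. Alternatives were other scaling, pseudocounts, filters, folds, core and flank limits, medians, background subtraction and cutoffs, and, chosen after seeing the data, leaving out each cluster and adding the 20 kb intervals. Values were computed in Python 3.11.15 with scipy 1.17.1, pandas 2.3.3 and numpy 2.4.6, and plots drawn with matplotlib 3.10.9.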

Additional observations from a re-analysis of the deposited data

How the results depend on the processing

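With 1 library per line, leaving out a replicate was not possible and culture-to-culture variation is not measured. No paired analysis was possible because each group holds 1 library. Depth limits single bins with few reads, such as the HoxA core bins with 6 to 19 WT reads of H3K27me3. Of 108 alternative values for 28 results, 30 moved by less than their error, 61 moved by more and 17 reversed. All but 1 of the reversals came from scaling each library to its own total, which removes the deposited factors by construction. For counts, widths and log2 differences that error was not the counting interval, and it was wide. Moves from 174 to 229 called bins, from 520 to 680 kb in K36M and from -1.42 to -0.94 in H3K27me3 log2 difference fell within it. Such values are thus not shown to be stable.

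Under that scaling the H3K27me3 ratio was 0.332 in the cores and 0.649 in the flanks, and the H3K36me2 ratio was 2.29 in the cores and 1.14 in the flanks. By cluster, the core H3K27me3 ratio was 0.427 for HoxA and 0.418 for HoxD, and the flank ratio 0.736 for HoxA, 0.473 for HoxB, 0.609 for HoxC and 0.838 for HoxD. The H3K36me2 core ratio was 2.79 for HoxA, 2.63 for HoxB, 1.34 for HoxC and 1.54 for HoxD, and the flank ratio 1.16 for HoxB, 1.27 for HoxC and 1.59 for HoxD. Calls were then 78 bins higher in H3K27me3 (30.9% of the genome's bins) and 109 lower in H3K36me2 (37.5%).

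The core H3K27me3 ratio stayed below 1 elsewhere: 0.799 by medians, 0.794 with background subtracted, 0.877 with the core extended by 20 kb, and 0.818 without HoxA, 0.926 without HoxB and 0.779 without HoxD, which were left out after seeing the data. The HoxA core alone reversed to 0.940 with background subtracted, and the cause was not tested; by medians it was 9.55. The flank ratio was 2.76 by medians, 1.52 with background subtracted and 1.30 within 200 kb.

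The core H3K36me2 ratio was 0.156 by medians, 0.290 with background subtracted, 0.185 with the core extended, and 0.206, 0.230, 0.269 and 0.254 without HoxA, HoxB, HoxC and HoxD in turn. The flank ratio was 0.0546 by medians, 0.118 with background subtracted, 0.0969 within 200 kb and 0.128 with 20 kb intervals added. With the WT median as pseudocount, 190 bins were lower in H3K36me2 (54.0% of the genome's). Core over flank for H3K27me3 was 2.04 in K36M and 7.04 in WT by medians, 1.52 in K36M and 2.35 in WT within 200 kb, and 1.91 in K36M and 3.65 in WT with background subtracted. The domain width in K36M was 1140 kb with the WT cutoff.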
